A study of Homo sapiens with 8 samples.

Results

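EPZ6438 (EPZ below) is tazemetostat, a small-molecule inhibitor of the histone methyltransferase EZH2, and the comparison described here set C4-2B cells kept in EPZ alone against the same cells kept in DMSO, the solvent control. C4-2B is a castration-resistant human prostate cancer line of the LNCaP lineage, so every value below comes from a single line. All 8 RNA-seq libraries were made from C4-2B cells treated for 7 days, with 2 libraries in each of 4 groups: DMSO, EPZ6438 at 1 uM, ENZ at 10 uM, and both agents together (Combination), for which the labels give no separate doses. ENZ commonly stands for enzalutamide, which blocks androgen signalling. The ENZ and Combination libraries enter here only through the expression filter, through the shared estimate of spread and as a second setting in which EPZ was present or absent. Genes were tested where their mean over the 8 libraries reached 1 FPKM (fragments per kilobase of gene, scaled to the size of the library), which left 11874 of 26443 genes with values. SESTD1 lay just inside that limit at a mean of 1.0003 FPKM and DCBLD2 just outside it at 0.9995 FPKM. A second set held the 11546 genes under 0.1 FPKM in both DMSO libraries, which served to look for genes that came on with EPZ.

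EZH2 is the catalytic subunit of Polycomb repressive complex 2 (PRC2), which methylates a lysine in the tail of histone H3 and thereby helps to keep genes silent. EED and SUZ12 are its core partners, and EZH1 is a second, weaker catalytic subunit. Silenced targets of PRC2 typically include developmental transcription factor genes and the inactive genes of other lineages. In prostate cancer cells EZH2 is also known to act on genes that are transcribed, and the title of the series concerns such an activating role. The comparison of EPZ with DMSO therefore describes which transcripts differed, in either direction, after 7 days of the inhibitor. Direct and later effects cannot be told apart in these libraries, nor can effects of EPZ outside EZH2.

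The labelled cell type was checked against marker genes of prostate luminal, basal and neuroendocrine cells, of fibroblasts and smooth muscle, and of blood cells. All 14 luminal markers were tested, and their summed level ran from 2083 to 2127 FPKM in DMSO and from 4775 to 4833 FPKM with EPZ. Much of that sum is KLK3, at up to 1015 FPKM in DMSO and up to 2803 FPKM with EPZ. By gene 9 luminal markers were higher, 3 were lower (lowest log2 change -0.64) and 2 did not pass. The shares over all tested genes were 23.4% higher and 32.4% lower. The summed basal markers lay between 10.2 and 12.7 FPKM in these 4 libraries and the summed neuroendocrine markers between 8.07 and 8.98 FPKM. The summed fibroblast and smooth muscle markers lay between 17.5 and 20.9 FPKM and the summed blood cell markers between 7.13 and 10.9 FPKM. With EPZ 1 of 3 tested basal markers was higher (highest log2 change 1.24), as was 1 of 3 tested fibroblast and smooth muscle markers (highest 0.87). The only tested blood cell marker, CD68, was higher by 0.46. The 2 tested neuroendocrine markers were slightly lower (-0.25 and -0.27), and 1 of them was called lower after scaling by median of ratios. SYP, a neuroendocrine marker under the filter and named after its value was seen, went the other way. It stood at 0.293 and 0.304 FPKM in DMSO and at 1.25 and 1.07 FPKM with EPZ. Of the defining genes of other cell types, TP63 (basal) was listed at 0 in all 4 libraries, as were CD3E (T cells), COL1A2 (fibroblasts) and DES (muscle). The chromogranin gene CHGA stayed at or under 0.0634 FPKM and the leukocyte gene PTPRC at or under 0.00361 FPKM. Estimated depth was 15400000 and 20300000 fragments in the DMSO libraries and 24400000 and 22300000 in the EPZ libraries, so EPZ libraries detect low genes somewhat more readily. The labels do not say whether replicates were separate cultures, and a p-value here reflects the spread between these libraries alone, which may be technical. A change below is EPZ minus DMSO on the log2(FPKM + 1) scale, with its standard error (SE) and a Benjamini-Hochberg adjusted p from limma over all tested genes.

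EPZ changed the level of many genes by small amounts and of a few by large ones, and the large changes were upward. Of the tested genes 2775 (23.4%) were higher and 3848 (32.4%) were lower, while 5251 did not pass an adjusted p of 0.05. Genes at least 2-fold higher numbered 220 (1.85% of those tested) and genes at least 2-fold lower 190 (1.6%). At a log2 change of 2 or more there were 41 higher genes and no lower ones, and at 3 or more there were 8 higher genes. The changes ran from -1.71 to 3.93, and the median over all tested genes was -0.0456. The genes that rose at least 2-fold started low, at a median of 3.05 FPKM in DMSO, against 9.48 FPKM for all tested genes. Those that fell at least 2-fold started at a median of 29.4 FPKM. On the log2(FPKM + 1) scale a gene low in DMSO has little room to fall. The filter keeps a gene under 1 FPKM in DMSO only where another group is higher. The part of scale and filter in the starting levels and in the excess of large rises was not tested. Of the tested genes 65 averaged under 1 FPKM over the other 6 libraries and so passed the filter only through EPZ, and 46 of these were called higher. Small RNA genes made up 296 of the tested genes, 20 of the 220 and 8 of the 190, and their FPKM rest on very short lengths.

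**Figure D1:**
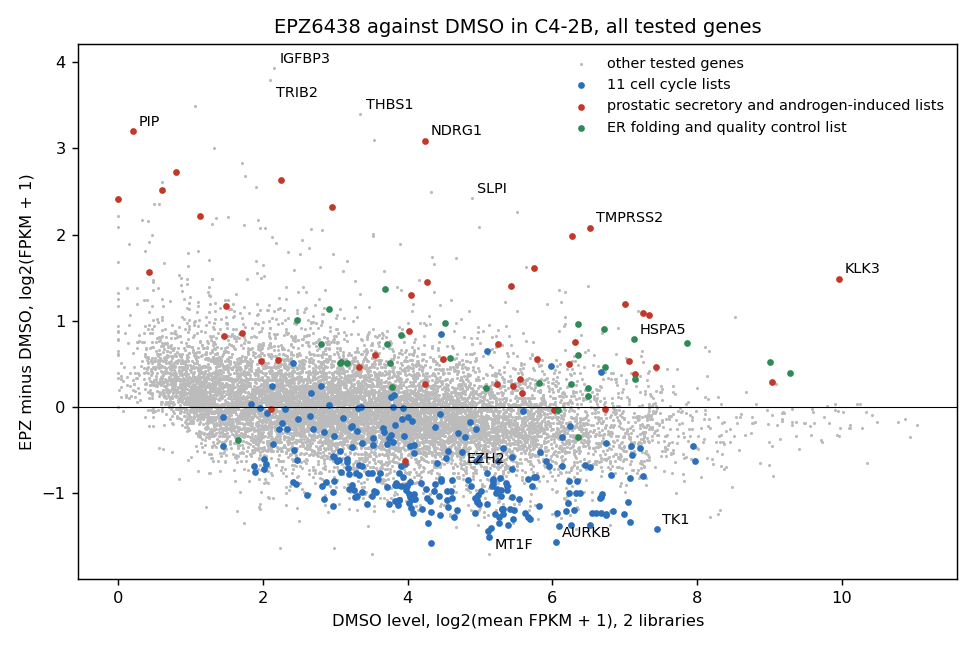
Each point is a tested gene, with its mean DMSO level on the horizontal axis as log2(FPKM + 1) and its change with EPZ on the vertical axis on the same log2 scale. The largest changes are upward and belong to genes of low or middling DMSO level such as IGFBP3 and TRIB2, while the cell cycle genes in blue lie mostly between 0 and the lowest value of -1.71.

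The gene with the highest change was IGFBP3, which encodes a secreted protein that binds insulin-like growth factors. It stood at 3.45 and 3.45 FPKM in the DMSO libraries and at 69.2 and 64.1 FPKM in the EPZ libraries, a change of 3.93 (SE 0.061, adjusted p = 8.31e-10). TRIB2, which encodes a pseudokinase that acts as a scaffold for protein degradation, went from 3.40 and 3.18 FPKM to 58.1 and 58.3 FPKM, a change of 3.79 (SE 0.063, adjusted p = 8.31e-10). THBS1, which encodes the matrix glycoprotein thrombospondin 1, went from 8.87 and 9.44 FPKM to 108 and 105 FPKM, a change of 3.40 (SE 0.059, adjusted p = 9.03e-10). In all of these genes both EPZ libraries lay far above both DMSO libraries, and the spread within a group was small beside the gap. BTG1, an antiproliferative gene, rose from 19.0 and 19.1 FPKM to 109 and 114 FPKM (2.49, SE 0.061, adjusted p = 9.25e-09). NDRG1, a stress- and androgen-responsive gene linked to differentiation, rose from 17.9 FPKM in both DMSO libraries to 153 and 166 FPKM (3.09, SE 0.069, adjusted p = 7.00e-09). SYT4, which encodes a synaptotagmin of secretory vesicles, rose from 10.4 and 10.7 FPKM to 96.9 and 100 FPKM (3.10, SE 0.077, adjusted p = 9.25e-09). The groups did not overlap in any of the 6 genes, which was a condition of the choice of the 20 highest. Over all tested genes the EPZ values lay outside the DMSO values in 82.2%. The other members of the 20 highest were CYP4F8, PIP, CHST2, SLC4A4, PLA2G2A, CRISP3, PHGR1, AGR2, STEAP4, SLPI, SEMG2, HS3ST1, SOX9 and ALDH1A3, with changes from 3.49 for CYP4F8 down to 2.32 for ALDH1A3. CYP4F8, PIP, PHGR1, STEAP4 and SEMG2 are among those that passed the filter only through EPZ. Several of these encode secreted proteins or enzymes of secretory epithelia, among them PIP (prolactin-induced protein), CRISP3, AGR2, SLPI and the semenogelin SEMG2.

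**Figure D2:**
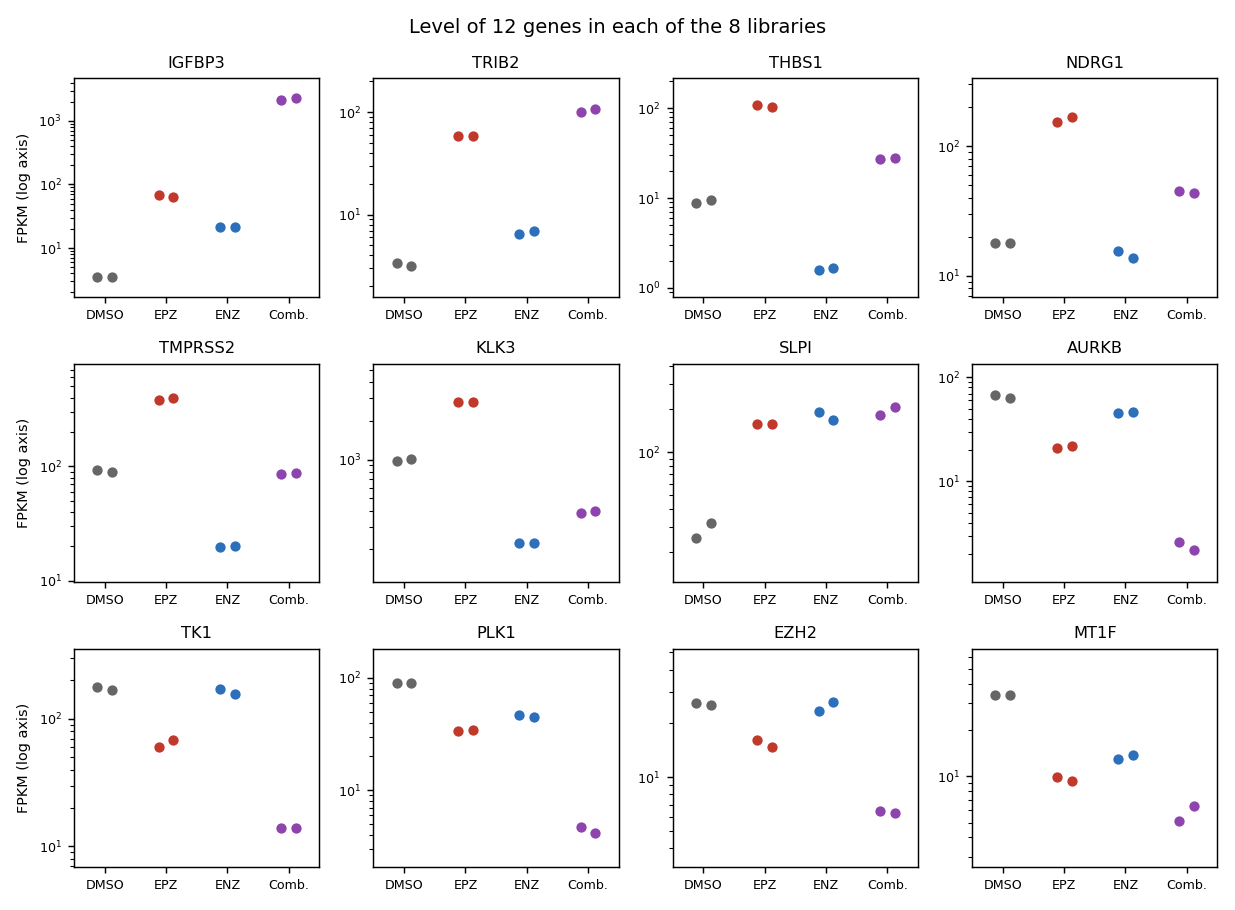
Each panel gives the FPKM of a gene on a log axis in each of the 8 libraries, with 2 points a group. In IGFBP3, TRIB2, THBS1, NDRG1, TMPRSS2, KLK3 and SLPI both EPZ points lie above both DMSO points, and in AURKB, TK1, PLK1, EZH2 and MT1F both lie below.

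Genes of the secretory prostate epithelium were higher with EPZ. Of 27 genes for proteins secreted into prostatic fluid 15 were tested, of which 14 were higher, none was lower and MSMB did not pass (-0.02, SE 0.16), and 9 of the 14 rose at least 2-fold. The median change of the tested members was 1.17, against -0.0456 for all genes. KLK3, which encodes prostate-specific antigen, was already among the most abundant transcripts at 978 and 1015 FPKM in DMSO and stood at 2800 and 2803 FPKM with EPZ (1.49, SE 0.047, adjusted p = 5.41e-08). KLK2, the neighbouring kallikrein, rose from 72.0 and 80.1 FPKM to 299 and 308 FPKM (1.99, SE 0.070, adjusted p = 9.17e-08). KLK2 and KLK3 are close relatives, so some reads may be shared between them. CRISP3, a cysteine-rich secretory protein of the male tract, rose from 3.73 and 3.76 FPKM to 27.4 and 29.5 FPKM (2.63, SE 0.079, adjusted p = 3.95e-08). PIP was close to 0 in DMSO, at 0.225 and 0.0856 FPKM, and stood at 8.46 and 10.8 FPKM with EPZ. PIP and SEMG2 passed the filter only through the EPZ libraries and so had to differ; of the other 13 tested members of the list 12 were higher. AZGP1, a secreted zinc-binding glycoprotein, and KLK4, both named after their values were seen, changed by 1.07 and 0.75.

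Androgen-induced genes outside the kallikreins moved in the same direction. Of 31 tested members 27 were higher, 11 of them at least 2-fold, with a median of 0.56; STEAP4 and MAF, named after its value was seen, passed the filter only through EPZ, and of the other 29 members 25 were higher. MPHOSPH9 fell (-0.63), and STEAP1 (-0.03), TPD52 (0.16) and SLC43A1 (-0.02) did not pass; these 4 are named after their values were seen. TMPRSS2, the androgen-regulated serine protease, rose from 92.3 and 90.1 FPKM to 381 and 396 FPKM (2.08, SE 0.050, adjusted p = 9.25e-09). ALDH1A3, which makes retinoic acid, rose from 6.70 and 6.80 FPKM to 36.7 and 38.5 FPKM (2.32, SE 0.072, adjusted p = 5.17e-08), and the metalloreductase gene STEAP4 from 0.468 and 0.582 FPKM to 7.61 and 7.93 FPKM. Values in the EPZ libraries were above those in DMSO without overlap in each of these genes, and the groups did not overlap in 82.2% of all tested genes. The 12 tested genes listed as androgen-repressed went both ways, with 6 higher and 4 lower, beside 23.4% and 32.4% of all tested genes. DDC, which makes dopamine and serotonin, fell from 45.4 and 40.7 FPKM to 15.3 and 17.4 FPKM (-1.35, SE 0.075, adjusted p = 1.14e-06), and FOLH1, prostate-specific membrane antigen, from 95 and 95.9 FPKM to 58.9 and 62.9 FPKM (-0.64, SE 0.058, adjusted p = 1.84e-05). TRPM8, a cold-sensing channel of prostate epithelium, rose from 2.90 and 3.23 FPKM to 16.6 and 15.7 FPKM (2.08, SE 0.081, adjusted p = 1.49e-07). It is counted among the 6 higher genes of that list, although it is generally described as androgen-induced.

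Lineage factors of the prostate varied in direction. SOX9, a transcription factor of prostate progenitors and bud outgrowth, was nearly silent in DMSO at 0.330 and 0.489 FPKM and stood at 6.34 and 6.08 FPKM with EPZ (2.36, SE 0.10, adjusted p = 3.03e-07). HOXB13 fell by 0.31 (SE 0.057, adjusted p = 0.00146) on the log2 scale and did not pass after quantile normalization. FOXA1, the pioneer factor of luminal cells, stood at 92.9 and 96 FPKM against 104 FPKM in both EPZ libraries, a difference that did not pass (0.13, SE 0.055, adjusted p = 0.0614). The coactivator gene NCOA1 fell by 0.76 (SE 0.062, adjusted p = 9.97e-06). Of the 17 tested lineage factor and coregulator genes 10 were higher and 3 lower (median change 0.22), beside 23.4% and 32.4% of all tested genes. The keratin genes of luminal cells, KRT8 and KRT18, rose by 0.96 and 0.52, while the basal keratin gene KRT5 was at 0 in both DMSO libraries and at 0.0178 and 0.0194 FPKM with EPZ.

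A group of adjacent secretory genes on chromosome 20 contributed 3 of the genes that came on from near 0, and the cluster was chosen for description after that was seen. In the hg38 annotation (GRCh38.p14) the WAP and semenogelin cluster spans chr20:45109463-45791883, or 682 kilobases, and holds 26 protein-coding genes, mostly small protease inhibitors of seminal fluid and skin. The semenogelin genes SEMG1 and SEMG2 encode the proteins that form the seminal gel, which prostate-specific antigen cleaves. SEMG2 was listed at 0 in both DMSO libraries and stood at 4.49 and 4.13 FPKM with EPZ, and SEMG1 went from 0.0390 and 0.0889 FPKM to 2.49 and 2.21 FPKM. WFDC12, a protease inhibitor gene at the other side of PI3, was listed at 0 in DMSO and stood at 2.75 and 3.88 FPKM with EPZ. SLPI, the secretory leukocyte protease inhibitor, lies next to SEMG2 and rose from 25.0 and 32.2 FPKM to 156 and 157 FPKM (2.42, SE 0.11, adjusted p = 3.41e-07), and SDC4 from 17.8 and 18.5 FPKM to 36.7 and 35.3 FPKM. Elsewhere in the cluster 14 of its protein-coding genes stayed under 0.1 FPKM in both DMSO and both EPZ libraries. Among them were WFDC2, WFDC8 and the epididymal inhibitor gene EPPIN, which was listed at 0 throughout. PI3, which lies between WFDC12 and SEMG1, had 0 and 0 FPKM in DMSO and 0.148 and 0 FPKM with EPZ.

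**Figure D3:**
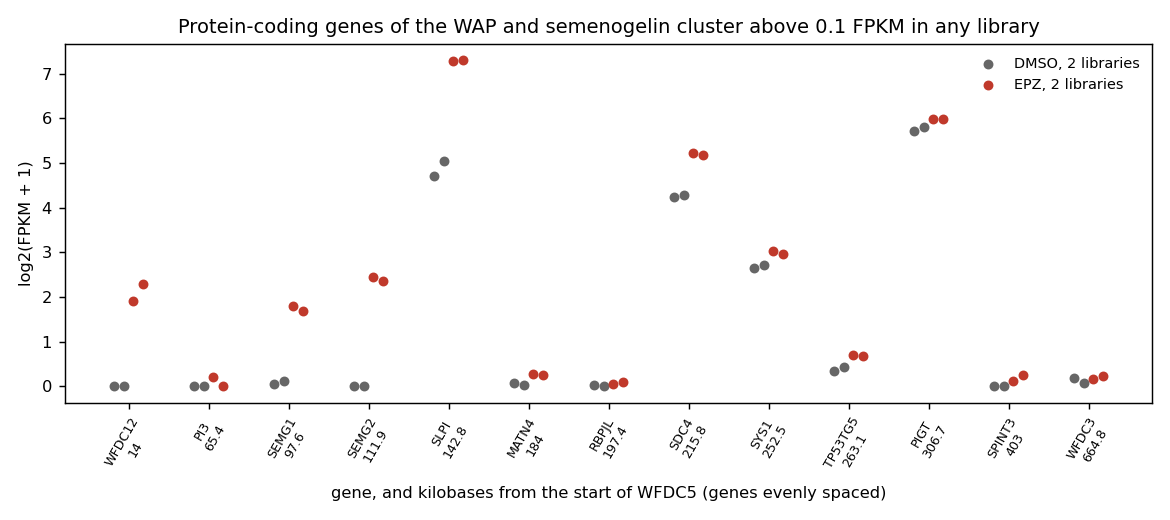
Protein-coding genes of the WAP and semenogelin cluster that exceeded 0.1 FPKM in any library are shown in genomic order, with their distance in kilobases from the start of WFDC5 under each name and their level as log2(FPKM + 1) in the 2 DMSO and 2 EPZ libraries. WFDC12, SEMG1 and SEMG2 sit at or near 0 in DMSO and above 1.5 with EPZ, while PI3 between them and the genes beyond SDC4 show small differences.

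The bases upstream of the semenogelin starts are printed because they differ in composition from those of LBH, another gene that came on from near 0. They are the 250 bases before the annotated start in RefSeq (GRCh38.p14), read 5′ to 3′ on the strand of the gene, with each CG dinucleotide in capitals. SEMG1 (chr20:45206783-45207032, plus strand) holds 1 CG and SEMG2 (chr20:45221123-45221372, plus strand) holds 2, whereas LBH (chr2:30231284-30231533, plus strand) holds 32. The 300-base promoter windows of SEMG1 and SEMG2 are identical at 75.5% of 319 aligned positions, and the genes are close copies, so their reads may be shared in part.
SEMG1: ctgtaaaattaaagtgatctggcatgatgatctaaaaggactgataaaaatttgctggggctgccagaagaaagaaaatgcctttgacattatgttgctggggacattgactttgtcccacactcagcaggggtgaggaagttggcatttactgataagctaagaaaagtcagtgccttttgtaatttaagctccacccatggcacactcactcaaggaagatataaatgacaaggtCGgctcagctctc
SEMG2: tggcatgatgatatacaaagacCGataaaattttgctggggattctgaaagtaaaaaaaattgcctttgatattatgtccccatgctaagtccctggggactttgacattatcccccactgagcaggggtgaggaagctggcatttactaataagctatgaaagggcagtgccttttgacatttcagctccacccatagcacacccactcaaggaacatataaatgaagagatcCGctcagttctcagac
LBH: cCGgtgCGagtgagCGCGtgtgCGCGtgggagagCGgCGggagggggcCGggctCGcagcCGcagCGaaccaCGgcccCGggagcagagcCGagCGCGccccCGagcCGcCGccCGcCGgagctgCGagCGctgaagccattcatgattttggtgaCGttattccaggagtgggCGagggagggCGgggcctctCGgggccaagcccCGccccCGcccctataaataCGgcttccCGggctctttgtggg

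Genes of DNA replication and mitosis were lower with EPZ, and they made up a large part of the genes that fell most. The 11 cell cycle lists together held 251 tested genes, of which 220 were lower, 7 were higher and the median change was -0.859. They make up 2.11% of the tested genes and 43.7% of the genes at least 2-fold lower (83 of 190), and none of the genes at least 2-fold higher. In bulk RNA, fewer cycling cells and less of these transcripts per cell cannot be told apart. MKI67, the proliferation antigen, stood at 32.5 and 33.7 FPKM in DMSO and at 18.9 and 17.2 FPKM with EPZ (-0.84, SE 0.078, adjusted p = 2.18e-05). No gene of these lists fell by 2 or more on the log2 scale.

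At the start of replication, 20 of the 23 genes for origin licensing and the replicative helicase were lower, 11 of them at least 2-fold, with a median of -1.0. MCM2, a subunit of the helicase ring, fell from 114 and 113 FPKM to 49.4 and 47.8 FPKM (-1.21, SE 0.056, adjusted p = 3.52e-07). CDC45, which activates that ring, fell from 41.4 and 40.4 FPKM to 15.7 and 14.7 FPKM (-1.37, SE 0.062, adjusted p = 3.39e-07), and the licensing factor gene CDT1 from 39.0 and 38.8 FPKM to 15.7 and 16.1 FPKM (-1.24, SE 0.058, adjusted p = 3.75e-07). The 3 that did not pass, named after their values were seen, were origin recognition subunits that are also expressed outside S phase: ORC3 (-0.07), ORC4 (-0.02) and ORC5 (-0.17). At the fork, 28 of 30 polymerase, clamp and histone chaperone genes were lower. PCNA, the sliding clamp, fell from 107 and 105 FPKM to 42.0 and 46.2 FPKM (-1.25, SE 0.072, adjusted p = 1.37e-06), and POLD4, a small polymerase subunit named after its value was seen, rose by 0.85. Nucleotide synthesis genes were lower in 25 of 26 cases, led by TK1 (thymidine kinase), which fell from 178 and 169 FPKM to 60.2 and 68.1 FPKM (-1.42, SE 0.073, adjusted p = 6.64e-07). RRM2, the ribonucleotide reductase subunit of S phase, changed by -1.23 (SE 0.065), whereas RRM2B, the p53-regulated subunit, named after its value was seen, did not pass. 

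In mitosis, 29 of 30 genes for mitotic kinases, the spindle checkpoint and the anaphase-promoting complex were lower, 19 of them at least 2-fold, with a median of -1.10. AURKB, the kinase of the chromosomal passenger complex, fell from 68.0 and 63.0 FPKM to 20.9 and 21.8 FPKM (-1.57, SE 0.074, adjusted p = 3.75e-07), and its partner BIRC5 (survivin) from 68.1 and 66.5 FPKM to 24.6 and 26.1 FPKM (-1.38, SE 0.066, adjusted p = 4.11e-07). PLK1 fell from 89.7 and 91.1 FPKM to 33.8 and 34.7 FPKM (-1.37, SE 0.064, adjusted p = 3.75e-07), and CDC20, which activates the anaphase-promoting complex, from 134 FPKM in both DMSO libraries to 52.6 and 52.9 FPKM (-1.33, SE 0.052, adjusted p = 1.54e-07). In each of these genes the EPZ libraries lay below the DMSO libraries by far more than the replicates differed. Kinetochore and centromere genes were lower in 28 of 31 cases, 15 of them at least 2-fold, with CENPN the member that rose (0.48, named after its value was seen). Motor proteins separated by function: all 13 mitotic kinesin genes were lower, with a median of -1.07, while of 14 tested kinesins of cargo transport 5 were higher and 2 lower (median change 0.00). KIF20A, which acts in cytokinesis, changed by -1.44 (SE 0.073), and KIF13B, a transport motor, by 0.72 (SE 0.076). The nuclear lamina gene LMNB1, outside these lists, fell from 80.7 and 77.7 FPKM to 29.6 and 28.2 FPKM (-1.42, SE 0.068, adjusted p = 4.11e-07).

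Among regulators of the cycle, 15 of 16 tested cyclins and their kinases were lower and CCND1 was the exception among those tested. The kinase gene CDK6, under the filter and named after its value was seen, was also higher by value. It stood at 0.402 and 0.360 FPKM in DMSO and at 1.06 and 1.03 FPKM with EPZ. CCNA2, the cyclin of S and G2 phase, fell from 34.5 and 33.3 FPKM to 11.3 and 11.2 FPKM (-1.51, SE 0.087, adjusted p = 1.37e-06), whereas CCND1, the cyclin of early G1, named after its value was seen, rose from 103 and 99.1 FPKM to 132 and 136 FPKM (0.41, SE 0.052, adjusted p = 1.53e-04). Transcription factors of the programme fell as well: 14 of 19 E2F, RB and MuvB genes were lower, among them E2F1 (-1.04, SE 0.074), FOXM1 (-1.28, SE 0.071) and MYBL2 (-1.24, SE 0.064). RB1 did not pass (-0.16, SE 0.080, adjusted p = 0.112). Of the 6 tested inhibitors of cyclin-dependent kinases CDKN1A (p21) rose, from 33.8 and 32.5 FPKM to 52.0 and 53.1 FPKM (0.65, SE 0.062, adjusted p = 2.64e-05), and the other 5 were lower, CDKN2C by -0.66 and CDKN3 by -0.96. CDKN1C (p57), an inhibitor gene known as a target of EZH2, lay under the filter at 0.504 and 0.306 FPKM in DMSO and 1.11 FPKM in both EPZ libraries. Tested p53 target genes were split, with 8 higher and 10 lower of 25, beside 23.4% and 32.4% of all tested genes. GDF15 changed by 1.36 (SE 0.12) and the proapoptotic gene BAX by -0.78 (SE 0.099). 

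Most genes of replication-coupled DNA repair were lower. Of 28 Fanconi and homologous recombination genes 27 were lower, with a median of -0.76, and of 30 genes of end joining, mismatch and excision repair 17 were lower and 2 higher (median -0.29). BARD1, the partner of BRCA1, had the lowest change after MT1F among named genes, falling from 18.9 and 19.0 FPKM to 5.54 and 5.86 FPKM (-1.58, SE 0.071, adjusted p = 3.30e-07). RAD54L, a motor of strand exchange, changed by -1.35 (SE 0.084) and PARP1 by -0.80 (SE 0.050).

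**Figure D4:**
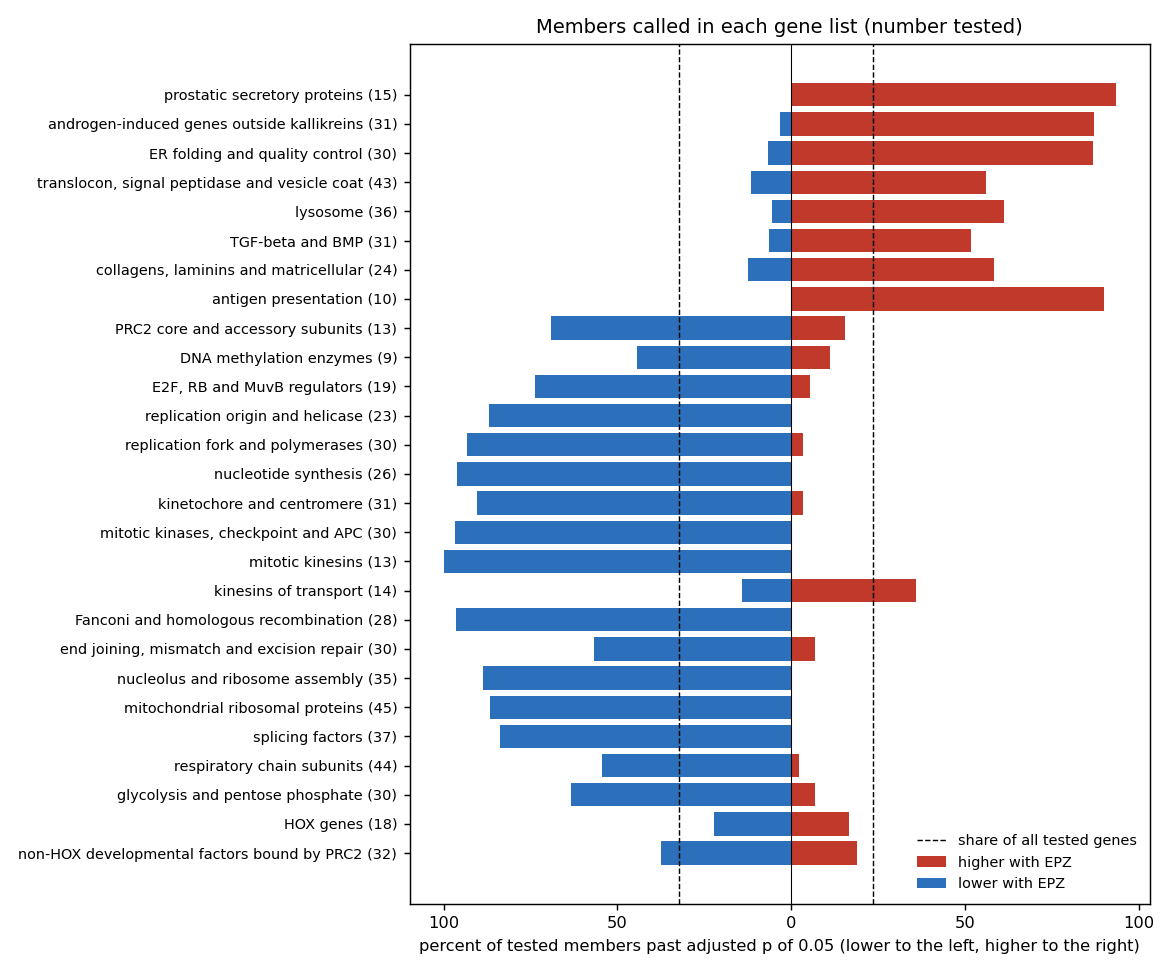
Bars give the percent of the tested members of each gene list that were higher (right, red) or lower (left, blue) with EPZ at an adjusted p of 0.05, with the number tested in brackets, and dashed lines mark the shares over all tested genes, 23.4% higher and 32.4% lower. Replication, mitosis, recombination, nucleolar and splicing lists lie almost wholly on the lower side, and prostatic secretory, androgen-induced and ER folding lists almost wholly on the higher side.

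Promoters of the genes that fell were searched for the letters that cell cycle factors are known to bind, and examples are printed to show them. The search covered 250 bases before to 50 after the RefSeq start of 9346 tested genes with a promoter in the table, on both strands. Letters of the E2F type (TTTCCCGC or TTTGGCGC) stood in 3.95% of these promoters and in 14.8% of the genes at least 2-fold lower (22 of 149). They stood in 1.91% of those at least 2-fold higher (3 of 157) and in 45% of origin and helicase genes (9 of 20). These 9 include ORC3, whose change did not pass. Letters of the cell cycle homology region (CHR, TTTGAA or TTCGAA) stood in 10.4% of all tested promoters and 37.6% of those of genes at least 2-fold lower (56 of 149). They stood in 10.8% of those at least 2-fold higher (17 of 157) and 56% of kinetochore genes (14 of 25). These 14 include CENPN, which rose. Matches may share bases at their ends, 0.567% of the tested promoters held both motifs, and over all 27305 promoters in the table E2F letters stood in 2.31% and CHR letters in 16.6%. A match is a description of the sequence, and binding was not measured here. In MCM6 (chr2:135876444-135876603, minus strand) and PCNA (chr20:5126623-5126772, minus strand) capitals mark E2F letters, in MCM6 starting 152 and 90 bases before the start and in PCNA 59 bases before it, on the other strand. In PLK1 (chr16:23678739-23678888, plus strand) and CDC20 (chr1:43358781-43358980, plus strand) capitals mark CHR letters, in PLK1 starting 29 bases before the start and in CDC20 178 and 65 bases before it, the first on the other strand. MCM6, named after its value was seen, fell from 35.7 and 35.1 FPKM to 18.4 and 18.9 FPKM.
MCM6: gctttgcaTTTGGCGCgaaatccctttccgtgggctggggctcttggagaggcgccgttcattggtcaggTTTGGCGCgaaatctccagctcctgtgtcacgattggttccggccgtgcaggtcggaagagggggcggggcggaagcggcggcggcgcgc
PCNA: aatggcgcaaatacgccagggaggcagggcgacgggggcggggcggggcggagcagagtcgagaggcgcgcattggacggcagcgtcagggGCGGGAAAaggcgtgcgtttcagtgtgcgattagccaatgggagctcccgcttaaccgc
PLK1: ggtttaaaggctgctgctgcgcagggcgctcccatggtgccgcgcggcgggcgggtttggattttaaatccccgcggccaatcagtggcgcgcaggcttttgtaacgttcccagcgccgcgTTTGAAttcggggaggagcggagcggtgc
CDC20: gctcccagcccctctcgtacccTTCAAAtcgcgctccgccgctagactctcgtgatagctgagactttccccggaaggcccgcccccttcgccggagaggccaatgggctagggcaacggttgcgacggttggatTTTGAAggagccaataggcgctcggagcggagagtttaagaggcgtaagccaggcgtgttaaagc

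The genes of the targeted complex were themselves lower. EZH2 stood at 26.2 and 25.4 FPKM in DMSO and at 16.1 and 14.7 FPKM with EPZ (-0.71, SE 0.072, adjusted p = 3.78e-05); EPZ acts on the protein, so the transcript level does not check the treatment. SUZ12 fell from 25.3 and 25.0 FPKM to 17.1 and 17.8 FPKM (-0.51, SE 0.079, adjusted p = 5.19e-04) and EED from 12.6 and 11.9 FPKM to 10.0 and 9.25 FPKM (-0.32, SE 0.078, adjusted p = 0.00678), a call that was lost without the first DMSO library or without the second EPZ library. Of 13 PRC2 genes 9 were lower and 2 higher (median change -0.32): PHF19, an accessory subunit, changed by -1.04 (SE 0.093), while JARID2 rose by 0.86 (SE 0.079) and EZH1, named after its value was seen, by 0.51 (SE 0.10). PRC1, the partner complex, had 5 lower and 3 higher genes of 18, near the shares of 32.4% and 23.4% over all tested genes, with CBX2 at -0.80 (SE 0.065). The maintenance methyltransferase gene of DNA, DNMT1, fell from 76.9 and 80.8 FPKM to 37.6 and 35.9 FPKM (-1.08, SE 0.058, adjusted p = 9.25e-07), and UHRF1, which guides DNMT1 to replicated DNA, from 11.1 and 10.1 FPKM to 4.23 and 3.89 FPKM (-1.20, SE 0.081, adjusted p = 3.68e-06). The de novo enzymes went opposite ways, with DNMT3B at -0.60 (SE 0.091) and DNMT3A at 0.42 (SE 0.078). Among lysine enzymes the H3 demethylase gene KDM5B rose by 0.91 (SE 0.069), and the methyltransferase gene SUV39H1 changed by -0.86 (SE 0.075).

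Most tested histone genes were higher, unlike the replication genes, and they were examined after this was seen. Of 73 histone gene rows with names starting in HIST 33 were tested, of which 22 were higher, 2 lower (HIST1H4C and HIST2H2AC) and 9 not called, with a median of 0.607, and 7 rose at least 2-fold. HIST2H2BE rose from 30.0 and 31.3 FPKM to 128 and 140 FPKM (2.09, SE 0.067, adjusted p = 5.41e-08), HIST1H4H from 19.8 and 19.2 FPKM to 60 and 68 FPKM (1.66, SE 0.077, adjusted p = 3.75e-07) and the linker histone gene HIST1H1C from 86.5 and 90.7 FPKM to 232 and 238 FPKM (1.40, SE 0.050, adjusted p = 9.73e-08). Histone genes are near-identical copies whose reads can be shared, and most of their messages in dividing cells lack a poly(A) tail, so their level depends on how RNA was selected, for which the sources used here give no method.

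Genes of cell growth were lower, with smaller changes than those of the cell cycle. Of 35 nucleolar and ribosome assembly genes 31 were lower and none higher (median -0.42), of 45 mitochondrial ribosomal protein genes 39 and none (median -0.39), and of 37 splicing factor genes 31 and none (median -0.52). FBL, the RNA methyltransferase of the nucleolus, fell from 275 and 256 FPKM to 155 and 148 FPKM (-0.81, SE 0.059, adjusted p = 5.55e-06), and NCL (nucleolin) from 520 and 497 FPKM to 322 and 318 FPKM (-0.67, SE 0.054, adjusted p = 9.27e-06). PTBP1, a regulator of splicing, fell from 197 and 202 FPKM to 118 and 117 FPKM (-0.76, SE 0.051, adjusted p = 3.75e-06). The EPZ values lay below the DMSO values without overlap in all of these, and the groups did not overlap in 82.2% of all tested genes. MYC, named after its value was seen, did not pass (-0.11). Among 32 proteasome genes 19 were lower and none higher (median -0.21), among 44 respiratory chain genes 24 were lower and 1 higher (median -0.22), and among 30 genes of glycolysis and the pentose phosphate pathway 19 were lower and 2 higher (median -0.25). For reference, 15 of 26 housekeeping genes were lower and 2 higher (median change -0.19), so small downward shifts in these lists lie close to those of housekeeping genes. After quantile normalization the lower calls numbered 6 for the proteasome (with 1 higher), 15 for the respiratory chain (with 6 higher) and 8 for housekeeping genes (with 5 higher). 

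Genes of ER folding were mostly higher, and those of later steps in the secretory pathway less uniformly so. In the endoplasmic reticulum (ER), 26 of 30 folding and quality control genes were higher, with a median of 0.52, and SDF2L1 (-0.35) and DERL3 (-0.38), named after their values were seen, were lower. HSPA5, the main ER chaperone BiP, rose from 138 and 140 FPKM to 230 and 252 FPKM (0.79, SE 0.058, adjusted p = 5.56e-06). EDEM3, which trims glycans of misfolded proteins, rose from 11.5 and 12.3 FPKM to 32.2 and 32.4 FPKM (1.37, SE 0.066, adjusted p = 4.11e-07), and the stress sensor gene ERN1 (IRE1) from 4.66 and 4.38 FPKM to 10.6 and 9.61 FPKM (1.01, SE 0.074, adjusted p = 5.43e-06). CREB3L4, a membrane-bound transcription factor of prostate secretory cells, rose from 82.6 and 78.8 FPKM to 157 and 158 FPKM (0.96, SE 0.063, adjusted p = 3.27e-06). Further along the pathway 24 of 43 translocon, signal peptidase and vesicle coat genes were higher and 5 lower (median 0.22), 13 of 33 N-glycan genes were higher and none lower (median 0.05), and 11 of 21 tested O-glycan and sialyl transferase genes were higher and 3 lower (median 0.29). GALNT2, which starts O-glycans on mucins, rose from 23.7 and 22.7 FPKM to 55.6 and 56.7 FPKM (1.24, SE 0.061, adjusted p = 4.99e-07). Of 36 lysosomal genes 22 were higher and 2 lower (median 0.27), with acid ceramidase, ASAH1, going from 68.5 and 68.1 FPKM to 157 and 165 FPKM (1.22, SE 0.050, adjusted p = 1.99e-07). ATF4 target genes, the amino acid arm of the stress response, were split. Of 23 ATF4 target genes 8 were higher and 13 lower, beside 23.4% and 32.4% of all tested genes. The serine synthesis genes PSAT1 and PHGDH changed by -1.08 (SE 0.064) and -0.86 (SE 0.059).

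The ER stress response element (ERSE), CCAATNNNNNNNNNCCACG, was searched on both strands, and every match contains the separate CCAAT motif. It was found in 6 of 27 promoters of the ER folding list (22.2%) and in 0.15% of all tested promoters. That share describes the named genes of the list, whatever their change with EPZ. Among genes at least 2-fold higher it stood in 0 of 157 promoters, and among those at least 2-fold lower in 0 of 149. HSPA5 (chr9:125241344-125241493, minus strand) carries it starting 66 bases before the start, and HSP90B1 (chr12:103930210-103930409, plus strand) at 194 bases and, on the other strand, at 89 bases before the start, shown in capitals. HSP90B1, the ER member of the HSP90 family, named after its value was seen, rose from 229 and 236 FPKM to 376 and 401 FPKM (0.74, SE 0.066, adjusted p = 1.78e-05).
HSPA5: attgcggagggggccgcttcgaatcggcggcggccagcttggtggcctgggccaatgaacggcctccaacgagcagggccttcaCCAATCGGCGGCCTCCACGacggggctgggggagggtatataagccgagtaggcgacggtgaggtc
HSP90B1: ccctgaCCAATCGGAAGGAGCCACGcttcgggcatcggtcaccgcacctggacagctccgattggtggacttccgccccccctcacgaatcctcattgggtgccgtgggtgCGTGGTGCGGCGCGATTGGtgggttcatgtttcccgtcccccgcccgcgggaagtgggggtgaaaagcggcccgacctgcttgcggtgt

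In metabolism, several polyamine and fatty acid genes rose and metallothionein genes fell. Of 12 tested polyamine genes 5 were higher and 4 lower, beside 23.4% and 32.4% of all tested genes. ODC1, which makes putrescine, rose from 372 and 361 FPKM to 714 and 803 FPKM (1.05, SE 0.060, adjusted p = 1.37e-06), SMS (spermine synthase) from 60.4 and 59.2 FPKM to 130 and 146 FPKM (1.19, SE 0.064, adjusted p = 9.25e-07) and SAT1, which acetylates polyamines for export, from 43.3 and 45.7 FPKM to 95 and 100 FPKM (1.12, SE 0.061, adjusted p = 9.45e-07). SRM (spermidine synthase) fell from 284 and 308 FPKM to 188 and 185 FPKM (-0.66, SE 0.069, adjusted p = 4.53e-05). Of 26 fatty acid genes 14 rose and 4 fell, with ACSL3 at 1.09 (SE 0.060), ELOVL5 at 1.11 (SE 0.072) and the desaturase gene FADS1 at -0.72 (SE 0.059). Of 25 cholesterol genes 5 rose and 6 fell, near the shares of 23.4% and 32.4% over all tested genes. Among metallothionein genes, which encode small metal-binding proteins, MT1F went from 33.8 and 33.9 FPKM to 9.92 and 9.36 FPKM (-1.71, SE 0.089, adjusted p = 7.31e-07), and MT2A from 283 and 294 FPKM to 119 in both EPZ libraries (-1.27, SE 0.068, adjusted p = 8.93e-07). Metallothionein genes are near-identical copies that share reads. Of the tested zinc transporter genes in that list 6 were higher, such as SLC39A7 at 0.47 (SE 0.064), and 1, SLC39A3, named after its value was seen, was lower (-0.27).

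Among signalling and matrix genes, members of the insulin-like growth factor axis changed in both directions. The ligand gene IGF1 fell from 4.37 and 4.67 FPKM to 1.49 and 1.43 FPKM (-1.17, SE 0.091, adjusted p = 7.57e-06), while the receptor gene IGF1R rose from 5.30 and 5.11 FPKM to 22.1 and 20.7 FPKM (1.85, SE 0.070, adjusted p = 1.17e-07) and its adaptor gene IRS2 from 0.852 and 0.894 FPKM to 3.61 and 3.31 FPKM (1.25, SE 0.091, adjusted p = 5.50e-06). With IGFBP3 among them, 5 of 11 tested members of this list were higher and 4 lower, beside 23.4% and 32.4% of all tested genes. Besides IGF1 the lower members, named after their values were seen, were the adaptor gene IRS1 (-0.27), the binding protein gene IGFBP2 (-0.24) and STC2 (-0.46). Of 31 tested TGF-beta and BMP genes 16 were higher and 2 lower (median 0.22). The ligand gene TGFB2 rose from 0.294 and 0.223 FPKM to 4.53 and 4.76 FPKM (2.17, SE 0.096, adjusted p = 3.03e-07), the receptor gene BMPR1B from 2.91 and 3.17 FPKM to 10.5 and 10.6 FPKM (1.52, SE 0.083, adjusted p = 9.64e-07), and BAMBI, a decoy receptor that dampens the pathway, from 6.17 and 5.86 FPKM to 27.6 and 28.3 FPKM (2.05, SE 0.067, adjusted p = 5.98e-08). Ligand and decoy receptor stood higher in the same libraries. Of 24 tested matrix genes 14 rose and 3 fell, and besides THBS1 they included ADAMTS1, a matrix protease, from 45.2 and 44.2 FPKM to 220 and 216 FPKM (2.26, SE 0.056, adjusted p = 9.25e-09), and FN1 (fibronectin), from 18.7 and 19.8 FPKM to 68.9 and 64.1 FPKM (1.74, SE 0.064, adjusted p = 1.13e-07). The mesenchymal marker gene VIM did not pass (-0.08, SE 0.066), and the epithelial factor gene GRHL2 rose by 0.64 (SE 0.055). The YAP and Hippo list, which also holds THBS1, had 4 higher and 7 lower genes of 19, near the shares of 23.4% and 32.4% over all tested genes, with TEAD4 at -1.04 (SE 0.065).

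Among immune genes most tested members of antigen presentation were higher. Of these 10 tested antigen presentation genes 9 were higher and none lower (median 0.50), with B2M, the invariant chain of class I molecules, at 47.9 and 49.3 FPKM in DMSO and 79.0 and 88.0 FPKM with EPZ (0.77, SE 0.063, adjusted p = 1.03e-05), and HLA-B at 3.55 and 3.65 against 6.53 FPKM in both EPZ libraries (0.71, SE 0.071, adjusted p = 3.60e-05). HLA class I genes share reads. The other 13 members of the antigen presentation list were not tested. CALR and PDIA3, which encode ER chaperones, are among the tested members, and CALR is also counted in the ER folding list. Of 21 tested interferon-stimulated genes 6 were higher and 7 lower (median 0.06), near the shares of 23.4% and 32.4% over all tested genes. Among them were STAT2 at 0.48 (SE 0.058) and ISG15 at -0.47 (SE 0.090). The chemokine gene CXCL12 rose from 0.245 and 0.410 FPKM to 4.84 and 5.03 FPKM (2.16, SE 0.12, adjusted p = 1.30e-06), and, like TGFB2 and IRS2 above, it passed the 1 FPKM filter only through the EPZ libraries.

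Genes that are classical targets of PRC2 in development were mostly near 0 in DMSO and with EPZ. Over all protein-coding genes near 0 in DMSO 1.96% reached 0.2 FPKM in both EPZ libraries, so the counts of none below lie close to that share. Of 120 developmental transcription factor genes outside the HOX clusters 73 were under 0.1 FPKM in both DMSO libraries, and none of these reached 0.2 FPKM in both EPZ libraries. Of the 32 that were expressed enough to be tested 6 were higher and 12 lower (median change -0.20), near the shares of 23.4% and 32.4% over all tested genes. Examples are IRX3 at 0.86 (SE 0.082) and WT1 at -0.87 (SE 0.090). Between these sets, and named after their values were seen, FOXD1 stood at 0.342 and 0.260 FPKM in DMSO and 1.37 and 1.34 FPKM with EPZ, and FOXC1 at 0.0188 and 0.143 FPKM against 0.665 and 0.636 FPKM. In a fit with no expression filter both were higher (0.86 and 0.61), and the list then had 11 higher and 13 lower members. Of 39 HOX genes 16 were under 0.1 FPKM in DMSO and none of these reached 0.2 FPKM with EPZ. Among 18 tested HOX genes 3 were higher and 4 lower, beside 23.4% and 32.4% of all tested genes, with HOXC4 at 0.69 (SE 0.092) and HOXA10 at -0.63 (SE 0.067). Germline and cancer-testis genes gave 29 near 0 of 44 in the table, none of which reached 0.2 FPKM. Of 9 tested 1 was higher and 1 lower, beside 23.4% and 32.4% of all tested genes. Neuronal and synaptic genes were near 0 in 41 of 61 cases and 1 of these reached 0.2 FPKM; of 11 tested 7 were higher and 1 lower, SYT4 by 3.10, the potassium channel gene KCNMA1 by 1.56 (SE 0.075) and MAP2 by 1.48 (SE 0.095). The neuroendocrine markers CHGA and INSM1 stayed at or under 0.0634 FPKM in the DMSO and EPZ libraries. SYP (synaptophysin), under the filter and named after its value was seen, stood at 0.293 and 0.304 FPKM in DMSO and at 1.25 and 1.07 FPKM with EPZ, and was higher in a fit with no expression filter (0.73, adjusted p = 0.00288).

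Over the whole table, few silent genes came on, and more did so with EPZ than went off. Of 6261 protein-coding genes under 0.1 FPKM in both DMSO libraries 5574 (89.0%) stayed under 0.1 FPKM in both EPZ libraries, and 123 (1.96%) reached 0.2 FPKM in both. The mirror count, protein-coding genes under 0.1 FPKM in both EPZ libraries and at 0.2 FPKM or more in both DMSO libraries, was 8 of 5738. At a level of 1 FPKM, 15 genes of any type came on, 7 of them protein-coding and 8 small RNA genes, and 1 went off, which was a microRNA gene. The count of 15 rests on both libraries of each group: with 1 library left out it rose to 24 without the first DMSO library, 34 without the second, 37 without the first EPZ library and 29 without the second. The EPZ libraries are deeper than the DMSO libraries, and 31.3% and 32.1% of genes were listed at 0 in them against 37.4% and 36% in DMSO; the part of depth in these counts was not tested. Besides SEMG1, SEMG2 and WFDC12 the protein-coding genes were LBH, a regulator of limb and heart development (0.0221 and 0.0671 FPKM in DMSO, 2.18 and 2.16 FPKM with EPZ), the axon guidance gene SEMA6D (0.0373 and 0.0496 against 1.45 and 1.29 FPKM), MUM1L1 (0.0301 and 0.0229 against 1.18 and 1.48 FPKM) and VSTM2A (0.0625 and 0.0633 against 1.13 and 1.15 FPKM). These values chose the genes and carry no test. The promoter windows of the near-0 protein-coding genes held a median of 7 CG dinucleotides, those of the 123 genes that reached 0.2 FPKM a median of 10, and those of all tested genes a median of 27.

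The ENZ and Combination libraries did not enter that choice and were used to look at the same genes with ENZ present. Over all 123 protein-coding genes that reached 0.2 FPKM with EPZ, with no filter, both Combination libraries lay above both ENZ libraries in 106 (86.2%) and below them in 2, and the median level was 0.111 FPKM in ENZ and 0.543 FPKM in Combination. Over all 6261 protein-coding genes near 0 in DMSO the corresponding share above was 25.7%, with 153 genes below; most of these genes are at or close to 0 in every library, where the groups cannot separate. Estimated depth was 19300000 and 21800000 fragments in the ENZ libraries and 19300000 and 16400000 in Combination. Of all genes with values 34.1% and 33.6% were listed at 0 in ENZ and 29% and 30.3% in Combination. The part of depth and detection in these shares was not tested. In a fit of those 4 libraries alone, 15948 genes averaging 0.1 FPKM or more were tested and 24.1% were higher in Combination than in ENZ; a gene near 0 in ENZ passes that filter only through Combination, so the genes below are given by their values, with no test. SEMA6D stood at 0.0447 and 0.0659 FPKM in ENZ and at 1.07 and 1.19 FPKM in Combination, close to its levels in DMSO and EPZ. SEMG2 stood at 0.0524 and 0.0463 FPKM in ENZ and at 0.288 and 0.432 FPKM in Combination, far under its level with EPZ alone. WFDC12 stood at 0 and 0.395 FPKM in Combination, and LBH at 0.0530 and 0.0416 FPKM in Combination and 0 in ENZ, so neither came near its level with EPZ alone.

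Across all tested genes the change with EPZ in the absence of ENZ was compared with the change in its presence (Combination minus ENZ), which uses no library in common, although both share the estimate of spread. In Combination against ENZ 25.3% of genes were higher and 45.5% lower (median -0.15). Of the 190 genes at least 2-fold lower with EPZ alone, 182 (95.8%) were lower and 2 higher in this second setting, with a median of -2.46. Of the 220 at least 2-fold higher, 184 (83.6%) were higher and 3 lower (median change 0.941). Pearson's r between the changes was 0.745 across 11874 genes, which are not independent replicates. Several cell cycle genes fell further with ENZ present: TK1 stood at 173 FPKM in the first ENZ library and 13.9 FPKM in the first Combination library, a change of -3.47 over all 4 libraries, against -1.42 with EPZ alone, and the difference of these changes was -2.05 (adjusted p = 1.55e-06). For BARD1 the order was the other way, with -1.06 against -1.58 (difference 0.52, adjusted p = 0.00307). TRIB2 and THBS1 rose by similar amounts in both settings, 3.75 against 3.79 and 3.44 against 3.40, and the 95% intervals of the difference were -0.23 to 0.17 for TRIB2 and -0.15 to 0.22 for THBS1.

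Several ER and polyamine genes that rose with EPZ alone were not higher in Combination than in ENZ. HSPA5 stood at 134 FPKM in the first ENZ library and 111 FPKM in the first Combination library, a change of -0.27 over all 4 libraries, and the difference from the change with EPZ alone was -1.06 (SE 0.082, adjusted p = 1.46e-05). The ER folding list as a whole had a median of -0.23 in Combination against ENZ, with 6 of 30 genes higher and 16 lower. Of the 43 translocon and vesicle coat genes 3 were higher and 34 lower there (median -0.36), and of the 33 N-glycan genes 1 was higher and 25 were lower (median -0.46). EDEM3 changed by -0.07 and CREB3L4 by -0.05 with ENZ present, and their differences of -1.44 and -1.0 passed. ODC1 went from 203 FPKM in the first ENZ library to 89.5 FPKM in the first Combination library, a change of -1.19 against 1.05 without ENZ (difference -2.24, SE 0.085, adjusted p = 5.67e-07). SAT1 rose in both settings, by 1.35 and 1.12, and that difference did not pass (0.24, SE 0.086, adjusted p = 0.0532). These genes were chosen for their change with EPZ alone, which enters the difference.

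**Figure D5:**
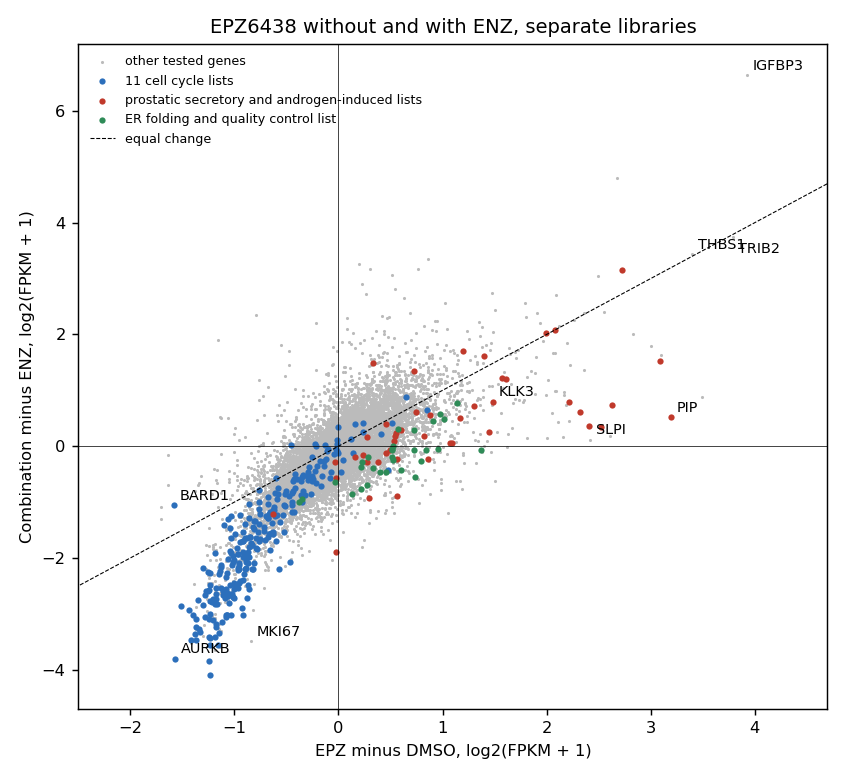
Each point is a tested gene, with its change with EPZ alone (EPZ minus DMSO) on the horizontal axis and its change with EPZ in the presence of ENZ (Combination minus ENZ) on the vertical axis, both on the log2(FPKM + 1) scale, and the dashed line marks equal change. Cell cycle genes in blue lie mostly below that line, TRIB2 and THBS1 lie near it, and ER folding genes in green lie mostly right of 0 and around or under 0 on the vertical axis.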

How the data were processed

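Libraries for Illumina sequencing were prepared with a NEBNext Ultra kit from total RNA of C4-2B cells, per the labels' protocols. STAR and hg38 are named without versions in the submitters' processing notes. The authors deposited 1 table of FPKM values for the 8 libraries; the sources used here do not name the counting tool, the annotation or a strand setting. Of 26475 rows 26443 carry values, and 28 symbols turned into dates were not named. Columns carry the short sample names of the labels.

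Depth was read from the spacing of low FPKM values. Per kilobase of gene, 1 fragment came to 0.041 to 0.0648 FPKM, depending on the library. FPKM were used as deposited, as log2(FPKM + 1), which understates changes of low genes. A linear model with 4 groups was fitted to 11874 genes with limma 3.58.1 in R 4.3.3 (two-sided moderated test with trend, 5.47 prior and 4 residual degrees of freedom), with Benjamini-Hochberg adjustment at 0.05, and checked on simulated data. Figures and summaries used Python 3.11.15, pandas 2.3.3, numpy 2.4.6 and matplotlib 3.10.9. Promoter sequences came from RefSeq (GRCh38.p14), and 95.5% of the 26443 rows with values were found in RefSeq's gene table, by symbol or by synonym.

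The comparison, its genes and the 70 gene lists were chosen with earlier results of these data known, so no list was tested: members are counted beside all tested genes. Named genes are the 20 highest and 20 lowest changes whose EPZ values both lie outside the DMSO values, up to 4 genes per list by smallest p, the genes that came on from near 0, and EZH2, EED, SUZ12, KLK3, MKI67, CDKN1A, CDKN1C and IGFBP3. Pseudogenes, small RNAs, clone-named, open reading frame, antisense and Y-linked genes were not named, some genes were left out for length, and a few are not reported here. Alternatives were a pseudocount of 0.1 FPKM, no filter, a filter at 5 FPKM, scaling by median of ratios, quantile normalization, only the compared libraries, the replicate number as a block, other limits for the near-0 genes, and leaving out each library.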

Additional observations from a re-analysis of the deposited data

Results flagged for a closer look

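For 33 genes, chosen as the 10 highest, the 10 lowest, the genes named in every case and the first ER and polyamine genes, the change with EPZ in the presence of ENZ was tested against the change without it. The test was the interaction term of the limma fit, with Benjamini-Hochberg adjustment over 11874 genes, and 26 of the 33 passed. The genes were chosen mainly on EPZ minus DMSO, which enters the difference with a negative sign, so extreme genes are drawn towards an opposite difference. Among genes that rose with EPZ alone, the difference on the log2 scale was 2.71 for IGFBP3, whose rise was larger with ENZ, and it was negative for CYP4F8 (-2.61), PIP (-2.68), SYT4 (-1.47), NDRG1 (-1.56), CHST2 (-1.22), SLC4A4 (-0.82) and KLK3 (-0.69). IGFBP3 reached 2152 FPKM in the first Combination library, against 21.3 FPKM in the first ENZ library. PIP and CYP4F8 were close to 0 in ENZ, where the pseudocount of 1 compresses changes.

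Among genes that fell with EPZ alone, the difference was -2.23 for AURKB, -1.35 for CCNA2, -1.49 for KIF20A, -2.11 for LMNB1, -2.05 for TK1, -1.63 for PRIM1, -1.07 for APLN, -1.98 for BIRC5, -2.65 for MKI67 and -1.10 for EZH2, so each fell further with ENZ. MT1F (0.63) and BARD1 (0.52) fell less. Among ER and polyamine genes the difference was -1.44 for EDEM3, -1.0 for CREB3L4, -0.53 for ERN1, -1.06 for HSPA5, -1.96 for SMS and -2.24 for ODC1. The 7 genes that did not pass were TRIB2, THBS1, PLA2G2A, EED, SUZ12, CDKN1A and SAT1.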

How the results depend on the processing

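With the filter at 5 FPKM, 1819 genes were higher and 145 at least 2-fold higher. A pseudocount of 0.1 FPKM gave 476 genes at least 2-fold higher and 290 at least 2-fold lower, and quantile normalization gave 111 of the latter. The stricter filter tests fewer genes (8223), and the smaller pseudocount widens changes of low genes by construction; the cause for quantile normalization was not tested. With 1 library left out the counts were 2067 to 2200 higher, 2832 to 3139 lower, 224 to 234 at least 2-fold higher and 187 to 197 at least 2-fold lower. Genes near 0 in DMSO that came on numbered 43 at 0.5 FPKM, 6 at 2 FPKM, 189 at 0.2 FPKM and 7 among protein-coding genes at 1 FPKM (the last pair of limits was chosen after seeing the data), and 24 to 37 with 1 library left out, which loosens the rule. Of them, those higher in Combination than in ENZ numbered 6, and 5 to 8 over the alternatives, under a filter that a gene near 0 in ENZ passes only through Combination. Of 278 named genes, 1 changed sign: DAPK1, at -0.04 after quantile normalization, where it did not pass. Calls lost under any alternative concerned DLL3, CDKN2A, CTAG2, KRT19, EED, ENO2, DAPK1, HOXB13, KRT80 and UPK2. Samples of different groups share only a replicate number in the labels: the deviations of same-numbered libraries correlated at -0.0153 for DMSO with EPZ, 0.109 for ENZ with Combination, and between these values for the other pairs of groups, save ENZ with EPZ, also at 0.109. In the fit with the replicate block 2847 genes were higher, 3936 lower, 222 and 191 at least 2-fold, and 8 of the near-0 genes were higher in Combination than in ENZ. Depth limits genes near 0, where 1 fragment per kilobase is worth up to 0.0648 FPKM.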

Other observations

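Outside the fixed lists, and named after their values were seen, the nuclear long noncoding RNAs NEAT1 and MALAT1 were higher with EPZ. NEAT1, the scaffold of paraspeckles, stood at 7.99 and 7.92 FPKM in DMSO and at 28.0 and 28.2 FPKM with EPZ, a change of 1.70 (SE 0.075, limma adjusted p = 2.85e-07). MALAT1, an RNA of nuclear speckles, stood at 69.1 and 73.0 FPKM in DMSO and at 185 and 175 FPKM with EPZ, a change of 1.33 (SE 0.074, limma adjusted p = 1.10e-06). Both were also higher in Combination than in ENZ, NEAT1 by 1.69 and MALAT1 by 1.47, in libraries not shared with the first comparison.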
